A study of Mus musculus with 32 samples.

Results

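The genes followed here are 9 of the 55291 gene symbols in the count tables. They were taken by symbol from the first column of the table of each stage, and all 9 were found in every table. Of these, 3 are embryonic globins (Hbb-y, Hbb-bh1 and Hba-x), 4 are adult globins (Hba-a1, Hba-a2, Hbb-bs and Hbb-bt), and 2 are erythroid genes, Alas2 and Slc4a1. The counts came from 32 libraries of polyadenylated RNA from whole brains of C57BL/6J mice. The mice were Dhcr7+/+ (WT) or Dhcr7-/- (KO), and the brains were taken on the day of birth (PND0) or before it, at E12.5, at E14.5 or at E16.5 (days of embryonic development), with 4 libraries in each of the 8 groups. Dhcr7 is the gene for the reductase that completes cholesterol synthesis, and mice without it model Smith-Lemli-Opitz syndrome. The labels state no promoter, Cre or tissue restriction for the Dhcr7-/- allele, and no litter, sex, pooling or perfusion of the brains.

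Hemoglobin carries oxygen as a tetramer of alpha-like and beta-like globin chains around heme. Red cells of the first wave, which arise in the yolk sac, use embryonic chains, whereas red cells made later in the fetal liver use adult chains, so that the circulating blood passes from embryonic to adult globin in mid-gestation. Brain tissue makes little of these chains itself, and a whole embryonic brain carries blood in its vessels.

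Libraries held from 13868087 counts (E12.5 KO replicate 1) to 28318857 (E14.5 WT replicate 2), and 24445 to 27177 symbols were detected. Dhcr7 was lower in every KO library than in every WT library of its stage, with mean levels in CPM (each library's counts scaled to a common total) of 67.3 in WT and 21.9 in KO (E12.5), 70.0 and 13.2 (E14.5), 62.5 and 17.1 (E16.5), and 89.2 and 14.4 (PND0). The 8 markers of neural tissue (among them Tubb3, Map2, Nes, Sox2 and Dcx) summed to between 2845 CPM, in E12.5 WT replicate 1, and 5236 CPM, and none was at 0 in any group. Of the 6 markers of liver, Ttr, which the choroid plexus of the brain also makes, held nearly all of the signal. The largest group mean of Alb, the main plasma protein made by liver, was 8.66 CPM (E16.5 KO), and that of Afp was 0.781 CPM (E14.5 WT). Apoa2, another of these markers, rose in KO from E14.5 to E16.5 (log2 fold change 3.10 ± 1.03, SE, edgeR adjusted p = 0.036). It then fell to PND0 (-2.96 ± 0.84, adjusted p = 0.015). In KO against WT at E16.5, Apoa1 (2.19 ± 1.29) and Apoa2 (1.58 ± 0.94) were not called (edgeR adjusted p = 0.57 each). Stage and count table are the same split, so differences between stages and between tables cannot be told apart.

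The globin genes lie in 2 clusters. On chromosome 7 (GRCm38, GENCODE M21), on the minus strand, Hbb-y covers chr7:103851749-103853216, Hbb-bh1 chr7:103841637-103843164, Hbb-bs chr7:103826534-103828096 and Hbb-bt chr7:103812524-103813996. On chromosome 11, on the plus strand, Hba-x covers chr11:32276400-32278116, Hba-a1 chr11:32283511-32284465 and Hba-a2 chr11:32296489-32297298. Alas2, the erythroid enzyme of the first step of heme synthesis, lies at chrX:150547375-150570638 on the plus strand, and Slc4a1, the anion exchanger (band 3) of the red cell membrane, at chr11:102348824-102366203 on the minus strand. All 9 are protein-coding.

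The 120 bases before the RefSeq start of 5 globin genes (GRCm38.p6) are shown because they set an embryonic beside an adult gene of each cluster, and the pair Hbb-bs and Hbb-bt, whose balance moved over the stages. Capitals mark every match, on either strand, to the motif CACCC, to the motif CCAAT, to the motif GATAA and to the motif ATAAA. A match on the other strand is shown by its reverse complement, such as ATTGG in Hbb-bt. Sequences run 5′ to 3′ along the gene, and 7 of the 9 genes matched the RefSeq table, without Hbb-bh1 and Slc4a1.
Hbb-y, chr7:103853208-103853327, minus strand: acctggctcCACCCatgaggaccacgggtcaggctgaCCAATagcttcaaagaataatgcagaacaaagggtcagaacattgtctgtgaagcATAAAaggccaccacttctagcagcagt
Hbb-bs, chr7:103827929-103828048, minus strand: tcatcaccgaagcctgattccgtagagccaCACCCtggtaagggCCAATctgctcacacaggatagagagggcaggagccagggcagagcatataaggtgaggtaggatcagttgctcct
Hbb-bt, chr7:103813924-103814043, minus strand: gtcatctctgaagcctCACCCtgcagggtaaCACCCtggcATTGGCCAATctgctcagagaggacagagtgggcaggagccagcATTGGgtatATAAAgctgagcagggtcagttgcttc
Hba-x, chr11:32276480-32276599, plus strand: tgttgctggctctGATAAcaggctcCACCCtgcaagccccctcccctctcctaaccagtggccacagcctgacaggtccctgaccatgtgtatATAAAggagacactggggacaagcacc
Hba-a2, chr11:32296372-32296491, plus strand: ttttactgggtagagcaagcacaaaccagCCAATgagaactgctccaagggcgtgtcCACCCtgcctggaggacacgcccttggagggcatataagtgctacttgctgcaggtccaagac

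CACCC, the core of the element bound by Klf1 and its relatives, was found in all 7 matched windows, against 31.7% of the 32851 windows of the same length in the table. CCAAT was found in the windows of Hbb-y, Hbb-bs, Hbb-bt, Hba-a1 and Hba-a2, against 21.3% of all windows. GATAA, a form of the GATA motif, was found in those of Hba-x and Alas2, against 10.5% of all windows. ATAAA, part of a TATA box, was found in those of Hbb-y, Hba-x, Hbb-bt and Alas2, against 20.2%. In Hbb-y it lay at positions -28 to -24 and in Hba-x at -27 to -23, counted from the RefSeq start. In Alas2, the GATAA and ATAAA matches are both on the other strand and overlap. A match describes these letters only, and none of the 4 motifs separated the embryonic from the adult genes in these windows.

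The embryonic globins made up most of the globin counts at E12.5, a minority at E14.5 and almost none from E16.5 on, in both genotypes. The share is the sum of Hbb-y, Hbb-bh1 and Hba-x in the sum of all 7 globin genes, from raw counts. In E12.5 WT libraries it was 78.1%, 73.3%, 59.8% and 75.7%, and in KO libraries of that stage 76.0%, 73.4%, 74.7% and 64.2%. In each genotype a single library, WT replicate 3 and KO replicate 4, lay below the others, and the groups overlapped.

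The means at E12.5 were 71.7% ± 8.18 in WT and 72.1% ± 5.34 in KO (SD, n = 4 each). The difference of 0.353 percentage points was far smaller than the spread between libraries. At E14.5 the 4 WT libraries held 28.8%, 27.6%, 34.9% and 34.0% and the 4 KO libraries 33.5%, 28.2%, 32.9% and 32.02%. The means were 31.3% ± 3.67 and 31.7% ± 2.38 (SD, n = 4 each), a difference of 0.345 percentage points, again within the spread. Every E14.5 library lay below every E12.5 library in both genotypes. Within a library the counting error was small: the 95% Wilson interval of the E12.5 WT replicate 3 value ran from 59.6% to 60.1%. These intervals, without molecular identifiers, describe counting error alone.

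At E16.5 the share in WT libraries was 0.0594%, 0.466%, 0.281% and 0.615%, from 8, 53, 62 and 135 embryonic counts. In KO libraries it was 0.264%, 0.209%, 0.227% and 0.499%, from 33, 23, 19 and 68 counts. The means were 0.355% ± 0.240 and 0.300% ± 0.135, and the groups overlapped. At PND0 embryonic counts were 0 in 4 of the 8 libraries and at most 8 in the others, out of 3017 to 39294 globin counts. A count of 0 allowed a share of up to 0.0676% in PND0 WT replicate 1 and 0.0994% in WT replicate 2, and of up to 0.0275% in KO replicate 1 and 0.0291% in KO replicate 4 (3 counts in each library's globin counts). The highest share at PND0 was 0.194%, in WT replicate 4. The means at PND0 were 0.0732% ± 0.0930 in WT and 0.00852% ± 0.0139 in KO (SD, n = 4), and the groups overlapped, since both held libraries with no embryonic count.

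**Figure D1:**
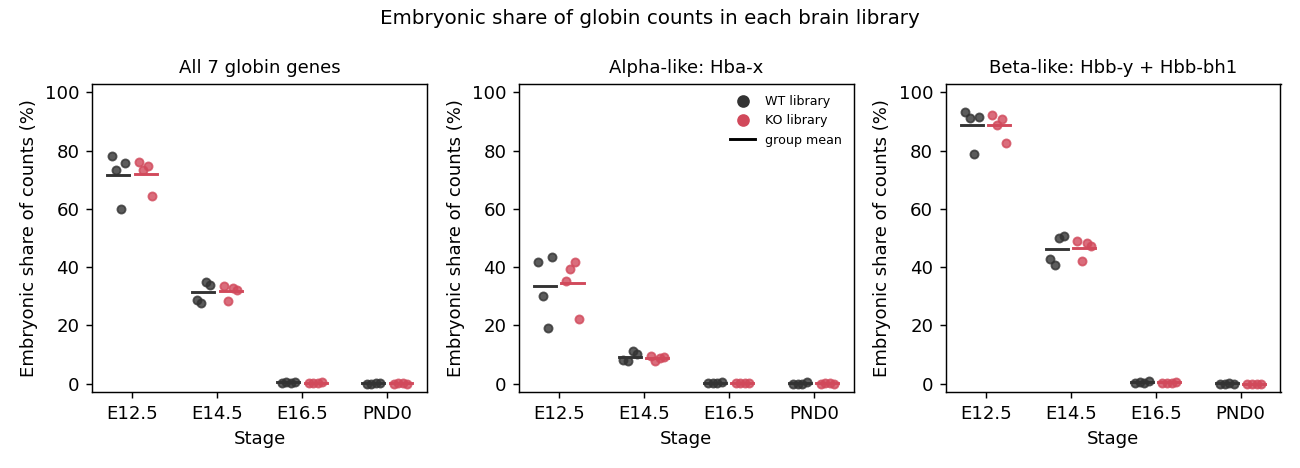
Embryonic share of counts in percent (vertical axis) in each library by stage (horizontal axis), for all 7 globin genes, for the alpha-like genes and for the beta-like genes. Points are libraries (WT grey, KO red) and lines are group means, which lie at 71.7% (WT) and 72.1% (KO) at E12.5, then at 31.3% and 31.7% (E14.5), in the left panel.

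The alpha-like and beta-like clusters differed in how much of their signal was embryonic. Among the beta-like genes, Hbb-y and Hbb-bh1 took 88.7% ± 6.69 of counts in WT and 88.6% ± 4.36 in KO at E12.5, and 46.1% ± 4.99 and 46.6% ± 3.16 at E14.5. Among the alpha-like genes, Hba-x took 33.6% ± 11.3 in WT and 34.6% ± 8.78 in KO at E12.5, and 9.24% ± 1.63 and 8.84% ± 0.702 at E14.5 (SD, n = 4). In each of these libraries the beta-like share was the higher of the 2, and no genotype difference exceeded the spread. Alpha-like genes took 30.8% ± 1.86 of all globin counts in WT and 30.7% ± 1.86 in KO at E12.5. At the later stages they took, in WT and KO, 40.1% ± 1.09 and 39.5% ± 0.724 (E14.5), 41.9% ± 3.31 and 41.8% ± 1.96 (E16.5), and 46.3% ± 1.29 and 44.9% ± 1.499 (PND0). Per transcript length the alpha-like share ran from 28.8% in WT at E12.5 to 44.4% at PND0.

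Hbb-y, which encodes the main embryonic beta-like chain, had the highest mean level of the 7 globin genes at E12.5, also per transcript length. Its level was 2848, 2280, 4738 and 1149 CPM in the WT libraries and 3094, 936, 1099 and 1025 CPM in the KO libraries. KO replicate 1 stood apart from the other KO libraries and lay within the WT range. At E14.5 it was at 290, 306, 444 and 328 CPM in WT and at 351, 356, 340 and 297 CPM in KO, and at E16.5 no library exceeded 6.51 CPM (WT replicate 4, 102 counts). At PND0 it had 4 counts in WT replicate 3 and 0 in the other libraries.

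Tests of neighbouring stages were fitted across all genes with edgeR's quasi-likelihood test, and a gene was called at a Benjamini-Hochberg adjusted p under 0.05. At the first step, E12.5 to E14.5, 5 of the 9 genes were called in WT, all lower, where 57.8% of all genes tested were called (30.5% lower). At the second step, E14.5 to E16.5, 6 of 9 were called in WT (4 lower and 2 higher), where 57.5% of all genes were called (28.2% lower and 29.3% higher). In KO the first step called 6 of 9 (5 lower and 1 higher), where 49.3% of all genes were called (25.0% lower and 24.3% higher). The second step in KO called 8 of 9 (6 lower and 2 higher), where 61.4% of all genes were called (30.5% lower and 30.9% higher). Hbb-bh1 and Hba-x were too scarce to be tested within E16.5. At the second step they passed the filter on low counts through E14.5, so they could only be called lower. Because a large share of all genes was called at each step, the direction and size of each gene carry the description. The KO and WT steps use different libraries, and the steps of 1 genotype share the libraries of the stage between them.

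Hbb-y fell at both steps in both genotypes. Its log2 fold change at the first step was -3.04 ± 0.41 (SE, adjusted p = 0.00036) in WT and -2.21 ± 0.36 (adjusted p = 0.00097) in KO by edgeR. At the second step it was -6.86 ± 0.49 (adjusted p = 3.4e-05) and -7.73 ± 0.21 (adjusted p = 4.3e-08). From summed counts these are falls of 7.52-fold and 117-fold in WT, and of 4.35-fold and 216-fold in KO. Whether the KO effect on Hbb-y differed between stages was tested over all 32 libraries, with an adjusted p of 0.775 by edgeR.

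Hbb-bh1, the second embryonic beta-like gene, was much scarcer than Hbb-y, whose transcript is of nearly the same length (633 against 613 bases for Hbb-bh1). It was at 111, 74.5, 73.3 and 73.2 CPM in E12.5 WT and at 114, 39.9, 59.1 and 17.8 CPM in E12.5 KO, which is a mean of 3.61% of the embryonic beta-like counts in both genotypes. At E14.5 it took 0.621% ± 0.112 of them in WT and 0.571% ± 0.155 in KO (SD, n = 4), from 28 to 67 counts per library. Every E14.5 library lay below every E12.5 library in this share. The log2 fold change at the first step was -5.30 ± 0.25 in WT and -4.92 ± 0.55 in KO (edgeR adjusted p = 2.2e-06 and 0.00015), against -3.04 and -2.21 for Hbb-y. Whether the 2 genes' falls differed was not tested. At E16.5 it had 0 to 5 counts per library, and at PND0 it had none in any of the 8.

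Hba-x, the embryonic alpha-like chain (zeta globin), was at 551, 320, 544 and 285 CPM in E12.5 WT and at 488, 196, 262 and 121 CPM in E12.5 KO. The groups overlapped, with KO replicate 1 again the highest of its group. At E14.5 the range was 38.0 to 62.8 CPM in WT and 39.2 to 45.5 CPM in KO. At the second step it fell by 5.52 ± 0.46 in WT and by 6.25 ± 0.16 in KO on the log2 scale (edgeR adjusted p = 5.4e-05 and 6.0e-19), to between 2 and 32 counts per library. In PND0 WT it had 8 counts in replicate 4 and 0 in the others. In PND0 KO it had 0, 1, 2 and 0 counts.

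**Figure D2:**
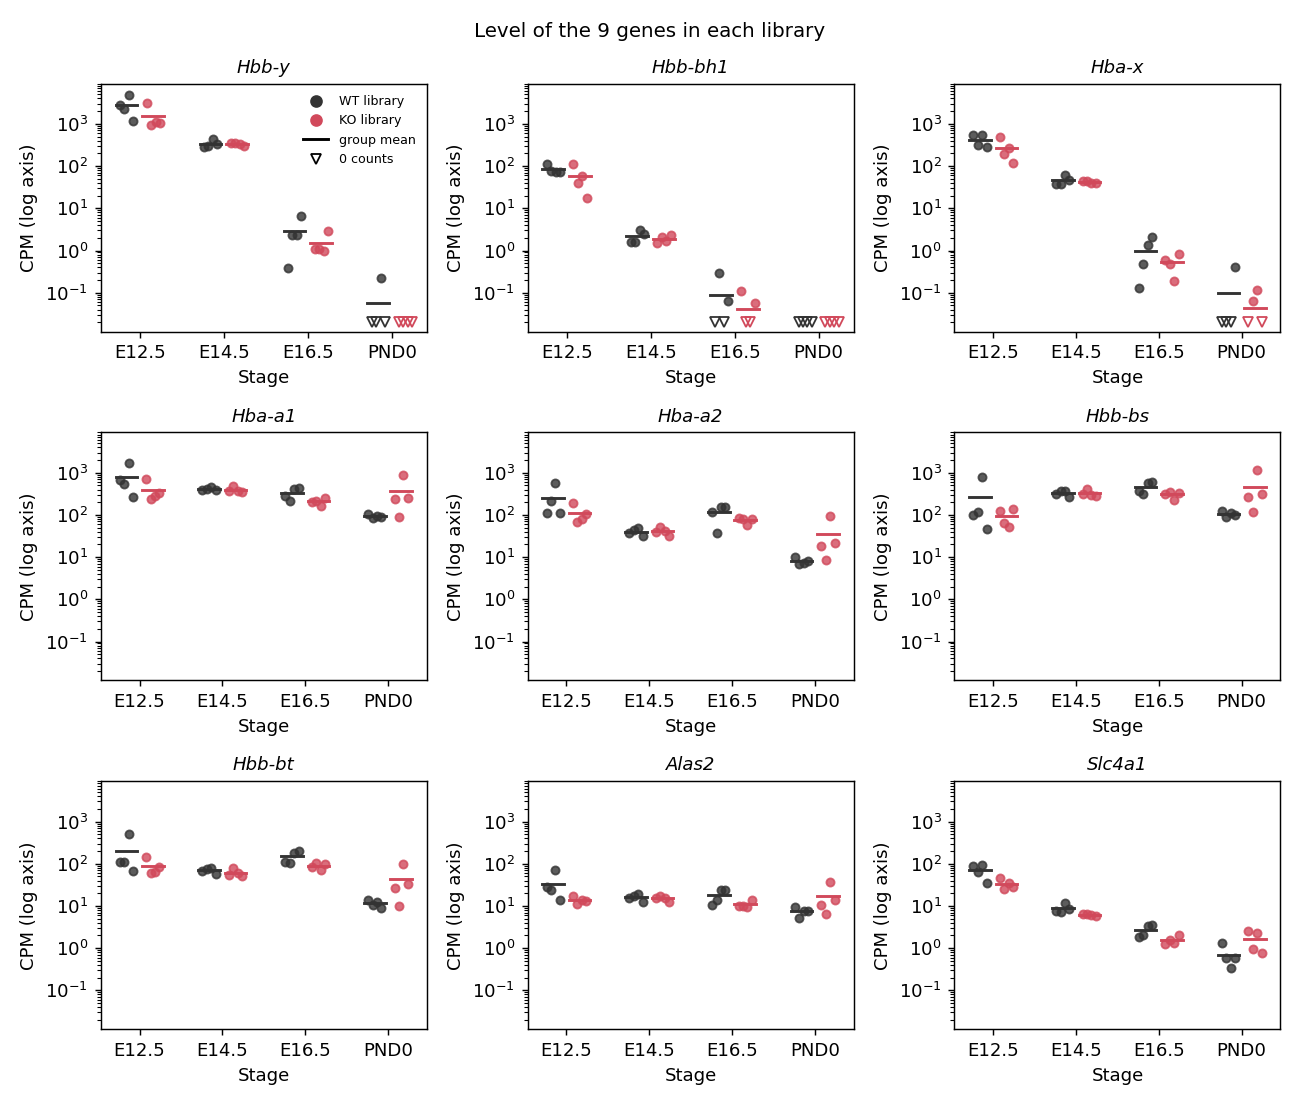
Level of each of the 9 genes in CPM (vertical, log axis, scaled by TMM over all libraries) in each library by stage. Points are WT (grey) and KO (red) libraries, lines group means and open triangles libraries with 0 counts. The 3 embryonic genes of the top row drop by E16.5, where Hbb-y is at most 6.51 CPM, and PND0 KO replicate 3 stands above its group for the adult genes, at 1137 CPM for Hbb-bs.

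Unlike the embryonic globins, the adult globins differed among themselves in direction over the stages. Hbb-bs, an adult beta chain gene, was at 102, 119, 797 and 46.3 CPM in E12.5 WT and at 123, 63.3, 51.0 and 139 CPM in E12.5 KO. WT replicate 3 stood far above the other WT libraries. At E14.5 the range was 264 to 370 CPM in WT and 284 to 415 CPM in KO, and at E16.5 it was 308 to 611 and 224 to 358 CPM. Hbb-bs rose from E12.5 to E14.5 in KO, by 1.80 ± 0.30 in log2 (edgeR adjusted p = 0.0010). In WT the same step had a log2 fold change of 0.29 ± 0.87 (adjusted p = 0.80), and of 1.87 (adjusted p = 0.0045) without WT replicate 3.

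Hba-a1, an adult alpha chain gene, was at 660, 535, 1719 and 263 CPM in E12.5 WT and at 704, 232, 286 and 323 CPM in E12.5 KO. It was between 351 and 479 CPM in all 8 libraries of E14.5. At the second step it fell by 0.90 ± 0.15 in KO (edgeR adjusted p = 0.0020). In WT the log2 fold change of that step was -0.28 ± 0.24 (adjusted p = 0.36).

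Hba-a2 and Hbb-bt are the near-identical partners of Hba-a1 and Hbb-bs, and both were called higher at the second step. At E12.5, Hba-a2 was at 108, 209, 574 and 109 CPM in WT and at 196, 68.3, 79.2 and 104 CPM in KO, with WT replicate 3 again the highest. At E16.5 it was at 115, 37.4, 157 and 151 CPM in WT and at 82.4, 82.3, 57.3 and 81.9 CPM in KO. Hba-a2 fell at the first step, by 2.66 ± 0.59 in WT (adjusted p = 0.0060) and by 1.45 ± 0.31 in KO (adjusted p = 0.0034). It then rose, with log2 fold changes at the second step of 1.54 ± 0.46 in WT (adjusted p = 0.029) and 0.88 ± 0.18 in KO (adjusted p = 0.0041). The WT rise was past the threshold without E16.5 WT replicate 2, and missed it when any of the other 7 libraries was left out (adjusted p of 0.053 to 0.076). Hbb-bt was at 113, 112, 503 and 65.6 CPM in WT and at 141, 60.8, 64.5 and 82.1 CPM in KO at E12.5, where WT replicate 3 stood apart. It had log2 fold changes at the first step of -1.51 ± 0.64 in WT (adjusted p = 0.078) and -0.51 ± 0.26 in KO (adjusted p = 0.13). It rose over the second step by 1.11 ± 0.27 in WT (adjusted p = 0.013) and by 0.56 ± 0.19 in KO (adjusted p = 0.041). The KO rise missed the threshold when any of 6 of the 8 libraries was left out (adjusted p of 0.065 to 0.10).

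In shares, Hbb-bt took 49.6% ± 8.38 of the adult beta counts (Hbb-bt plus Hbb-bs) in WT and 48.8% ± 8.29 in KO at E12.5. In the same order of genotypes it then took 17.7% ± 0.473 and 15.7% ± 0.916 (E14.5), 24.5% ± 0.853 and 22.9% ± 1.27 (E16.5), and 9.75% ± 0.977 and 8.83% ± 0.969 at birth (SD, n = 4). The course was down, up and down, with no overlap between neighbouring stages in either genotype. At E14.5 the KO libraries (14.9%, 16.3%, 16.7% and 15.05%) all lay below the WT libraries (17.6%, 17.1%, 18.3% and 17.7%), by 1.92 percentage points on average. At the other 3 stages the genotypes overlapped. This share was one of several ratios examined and was not tested.

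Hba-a2 took a course of the same shape within the adult alpha counts: 24.1% ± 6.91 in WT and 22.6% ± 1.24 in KO at E12.5, then 8.86% ± 1.02 and 9.46% ± 0.657 (E14.5), 24.4% ± 6.40 and 26.7% ± 1.97 (E16.5), and 8.01% ± 0.757 and 8.34% ± 1.08 at birth. Single WT libraries lay below their groups, E12.5 replicate 1 at 14.1% and E16.5 replicate 2 at 15.01%. No genotype difference exceeded the spread.

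These splits depend on how reads from near-identical copies were counted. The coding sequences of Hba-a1 and Hba-a2 differ at 1 of 429 bases and those of Hbb-bs and Hbb-bt at 1 of 444. Of all 150-base stretches of the annotated transcripts, the length of 1 read, 48.4% of those of Hba-a1 and 65.7% of those of Hba-a2 occur in the other gene. For Hbb-bs and Hbb-bt these shares are 58.7% and 50.7%. For Hbb-y, Hbb-bh1 and Hba-x the share is 0, and Hbb-y and Hbb-bh1 are 76.4% identical in coding sequence. Values of the 4 adult globins taken one by one are therefore uncertain, and if reads that fit more than 1 gene were left out, adult globin is undercounted against embryonic globin. The embryonic share could then be lower than printed here, to an extent not tested. In the promoter windows, Hba-a1 and Hba-a2 are 95.1% identical and Hbb-bs and Hbb-bt 74.6%.

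**Figure D3:**
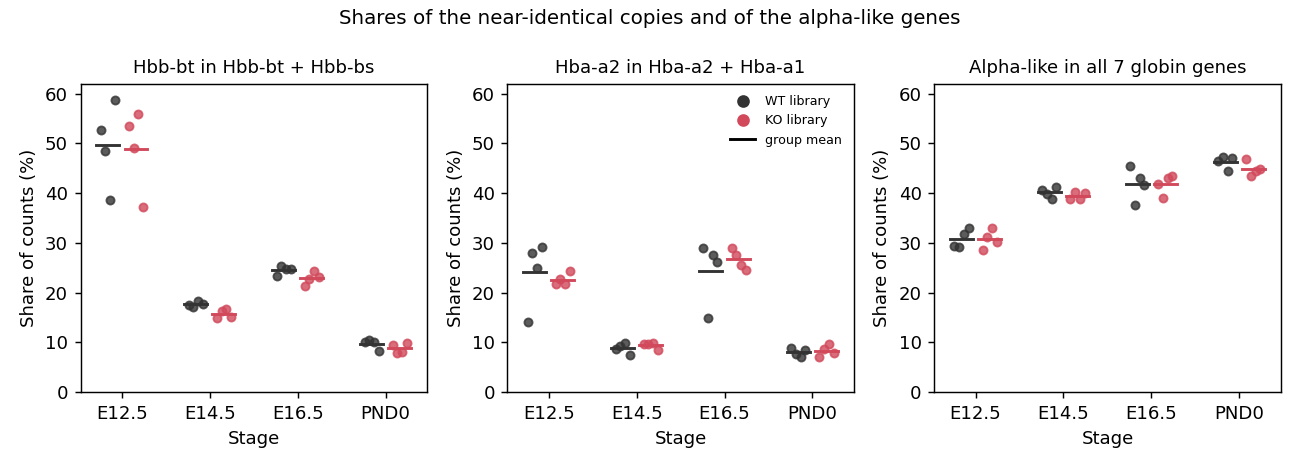
Share of counts in percent (vertical axis) of Hbb-bt in the adult beta genes, of Hba-a2 in the adult alpha genes and of the alpha-like genes in all globin counts, in each library by stage. Points are WT (grey) and KO (red) libraries and lines group means. Hbb-bt goes from 49.6% at E12.5 to 17.7% at E14.5 and 24.5% at E16.5 in WT, with the KO points below the WT points at E14.5.

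Slc4a1 fell from E12.5 to E16.5 in both genotypes, while Alas2 stayed within a narrower range. Slc4a1 was at 89.9, 65.2, 92.1 and 35.9 CPM in E12.5 WT and at 46.7, 24.8, 34.5 and 27.5 CPM in E12.5 KO, where KO replicate 1 alone reached into the WT range. It fell by 3.02 ± 0.33 (WT) and 2.45 ± 0.19 (KO) in log2 at the first step, and by 1.69 ± 0.22 and 1.99 ± 0.18 at the second (edgeR adjusted p from 1.3e-09 to 0.00011). At E16.5 it was between 1.26 and 3.51 CPM in all libraries.

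Alas2 was at 28.6, 23.9, 69.5 and 13.9 CPM in E12.5 WT and at 17.3, 10.9, 13.5 and 12.8 CPM in E12.5 KO. At E14.5 it was between 12.7 and 19.6 CPM in WT and between 12.7 and 17.5 CPM in KO. It fell by 0.48 ± 0.12 in KO at the second step (edgeR adjusted p = 0.0016), and in WT the log2 fold change was 0.18 ± 0.30 (adjusted p = 0.63). Alas2 counts per 100 Slc4a1 counts were 45.7 ± 20.1 in WT and 41.7 ± 4.40 in KO at E12.5, then 186 ± 38.0 and 248 ± 24.1 (E14.5), and 655 ± 58.0 and 714 ± 60.5 (E16.5, SD, n = 4). The ratio was higher at each later one of these stages in both genotypes, with no overlap between stages, and the genotypes overlapped at every stage.

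In WT from E16.5 to PND0, all 6 of the genes tested were called and lower, where 53.2% of all genes were called (27.2% lower). Log2 fold changes ran from -1.30 ± 0.28 for Alas2 to -3.85 ± 0.51 for Hba-a2 (edgeR adjusted p of 0.0023 or less). In KO, where 48.2% of all genes were called (24.9% lower), Hbb-y alone of the 7 tested was called, from 104 counts in 4 libraries to 0. Against a floor of 3 counts over the group this is at least 36.6-fold lower. In KO, Hbb-y passed the filter on low counts through E16.5 alone, so it could only be called lower. In WT it was not tested at this step, so its call in KO is no difference between the genotypes. Without PND0 KO replicate 3, Hba-a2 (log2 fold change -2.25) and Hbb-bt (-1.96) were also lower in KO (edgeR adjusted p = 0.0023 and 0.011).

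At E12.5 the amount of globin RNA varied more between brains than its embryonic share did, with a mean of 0.493% ± 0.303 of the library in WT and 0.249% ± 0.142 in KO (SD, n = 4). At E16.5 in both genotypes it was the embryonic share that varied more relative to its mean. Globin counts made up 0.474%, 0.385%, 0.914% and 0.200% of the E12.5 WT libraries and 0.461%, 0.157%, 0.189% and 0.186% of the E12.5 KO libraries. At E14.5 the range over both genotypes was 0.104% to 0.145%, and at E16.5 it was 0.0543% to 0.147%. At PND0 it was 0.0182% to 0.0243% in WT, and 0.0525%, 0.0213%, 0.213% and 0.0588% in KO. KO replicate 2 lay within the WT range at PND0 and KO replicate 3 stood far above the rest. In bulk tissue, a smaller volume of blood, fewer red cells and less RNA per red cell cannot be told apart.

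The sum of 14 erythroid markers outside the 9 genes (among them Epb42, Klf1 and Gata1) was 67.7 ± 19.8 CPM in WT and 43.3 ± 17.5 CPM in KO at E12.5. In the same order it was 18.5 ± 2.30 and 15.3 ± 2.40 (E14.5), 12.8 ± 2.62 and 13.1 ± 1.35 (E16.5), and 16.8 ± 2.66 and 18.1 ± 6.76 (PND0; SD, n = 4), and the genotypes overlapped at every stage. On the day of birth, up to 6 of the 14 markers had 0 counts in a WT library and up to 3 in a KO library. In WT from E16.5 to PND0, 3 of them could be tested, and Tspan33 was called, higher by 0.60 ± 0.15 (edgeR adjusted p = 0.0040). The 4 adult globins, Alas2 and Slc4a1 were called lower at that step, where 53.2% of all genes were called. The WT mean of the marker sum was higher at PND0 (16.8 CPM) than at E16.5 (12.8 CPM), opposite to these genes. How far the markers follow blood at the late stages was not tested. At E12.5, WT replicate 1 (87.7 CPM), WT replicate 3 (77.5 CPM) and KO replicate 1 (68.6 CPM) were the 3 highest libraries both in this sum and in globin share. At PND0, KO replicate 3 had the highest sum (27.5 CPM). Markers of platelets summed to 24.3 ± 6.53 CPM in WT and 19.9 ± 9.63 CPM in KO at E12.5, and those of white cells to 4.60 ± 0.981 and 3.61 ± 0.856 CPM.

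**Figure D4:**
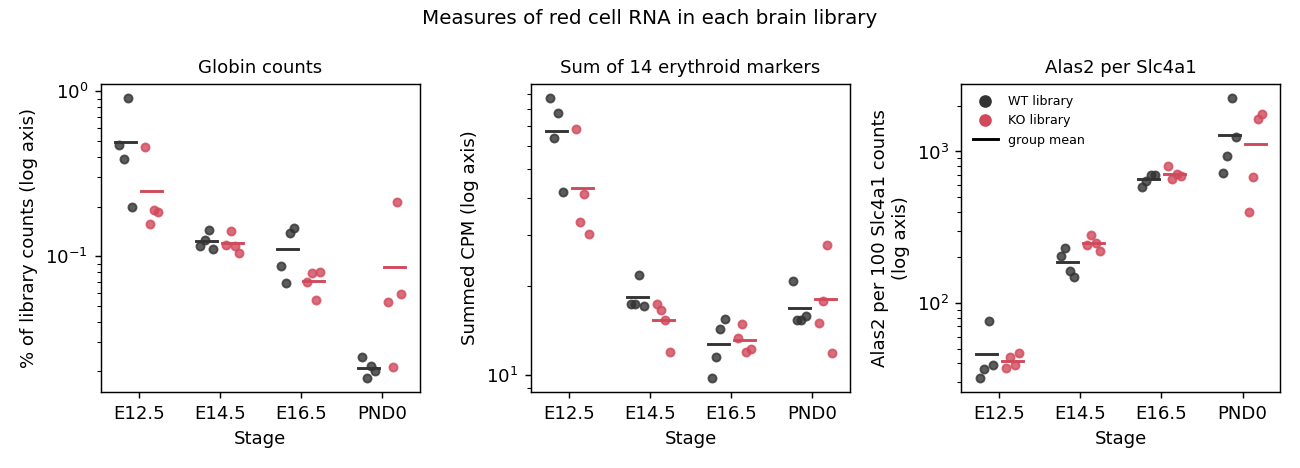
Globin counts in percent of the library, the summed level of 14 erythroid markers in CPM, and Alas2 counts per 100 Slc4a1 counts (all on log axes) in each library by stage. Points are WT (grey) and KO (red) libraries and lines group means. PND0 KO replicate 3 is at 0.213% globin, and the ratio of Alas2 to Slc4a1 goes up from 45.7 in WT at E12.5 to 655 at E16.5.

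Between genotypes, none of the 9 genes was called at any stage by edgeR. At E12.5, where 0.0177% of 16948 genes were called, all 9 log2 fold changes (KO minus WT) were negative, from -0.55 ± 0.45 for Hbb-bh1 to -1.51 ± 0.80 for Hbb-bs. The median was -1.19 over the adult globins and -0.69 over the embryonic ones, against 0.0031 over all genes. Slc4a1 (-1.10 ± 0.31) and Alas2 (-1.33 ± 0.43) had unadjusted p of 0.0053 and 0.012, and an edgeR adjusted p of 0.875. Without WT replicate 3 the fold change of Hbb-bs was 0.06 and that of Hbb-bt -0.18. With the erythroid marker level as a covariate, the values at E12.5 were between -0.02 (Hbb-bh1) and -1.19 (Hbb-bs), and none was called. All 14 erythroid markers also had negative fold changes at E12.5, with a median of -0.43, while all 8 neural markers had positive ones (median 0.16). The part of blood content in the differences of the 9 genes was not tested beyond the covariate.

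At E14.5, where 0.527% of 17837 genes were called, 8 of the 9 genes had log2 fold changes between -0.18 and 0.05. Slc4a1 was the exception: its levels were 7.59, 7.37, 12.03 and 8.64 CPM in WT and 6.50, 6.28, 6.07 and 5.77 CPM in KO, so that every KO library lay below every WT library. Among all genes averaging 1 CPM or more, 2.91% were separated with KO below and 4.99% in either direction. The fold change was -0.52 ± 0.14 (unadjusted p = 0.00051, edgeR adjusted p = 0.078). Over leaving out each library the adjusted p ran from 0.015 (without WT replicate 2) to 0.51. Without the filter on low counts it was 0.017. Of the 11 erythroid markers tested at this stage, 9 had negative fold changes, with a median of -0.45. With the erythroid marker level as a covariate the fold change was -0.15 (adjusted p = 0.95). The covariate holds none of the 9 genes.

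At E16.5, where 0.0462% of 17328 genes were called, 7 of the 9 genes could be tested and all 7 had negative fold changes, from -0.61 ± 0.27 (Hbb-bs) to -0.92 ± 0.75 (Hbb-y). Slc4a1 was at -0.83 ± 0.26 (unadjusted p = 0.0063, edgeR adjusted p = 0.30). Of the 3 erythroid markers that could be tested at E16.5, 2 had positive fold changes, with a median of 0.21. None of the 7 genes was called with the erythroid marker level as a covariate. None was called without it either, so these calls cannot show a part of blood content. WT replicates 3 and 4 held 0.138% and 0.147% globin and WT replicates 1 and 2 held 0.0868% and 0.0685%, within or near the KO range of 0.0543% to 0.0801%.

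At PND0 the direction was the other way. Where 1.44% of 17420 genes were called, the 6 genes tested had positive fold changes, from 1.19 ± 0.55 (Alas2) to 2.14 ± 0.81 (Hba-a2), with edgeR adjusted p from 0.20 to 0.32. Hbb-bs was at 90.4 to 121 CPM in WT and at 259.9, 116, 1137 and 305 CPM in KO. Hba-a1 was at 107, 83.3, 93.6 and 88.2 CPM in WT and at 236, 87.8, 891 and 255 CPM in KO. For both genes KO replicate 2 lay in the WT range and the other 3 KO libraries above it. Without KO replicate 3 the 4 adult globins had fold changes of 0.97 to 1.09, and none was called. DESeq2 called Hba-a1 (1.99, adjusted p = 0.043) and Hbb-bs (2.10, adjusted p = 0.034) at this stage, where it called 921 genes in all, against 250 by edgeR. Of the 4 erythroid markers tested at PND0, 3 had positive fold changes, with a median of 0.38. In edgeR fits with the erythroid marker level as a covariate, none of the 6 genes was called. Since edgeR called none without it either, these calls cannot show a part of blood content.

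**Figure D5:**
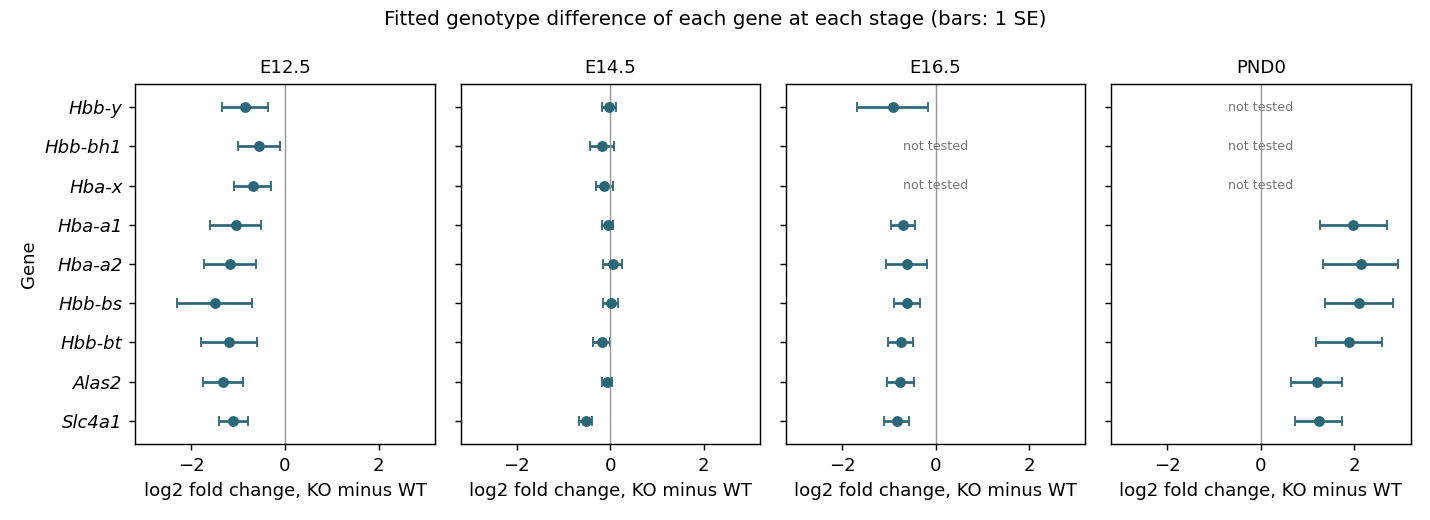
Fitted log2 fold change of KO against WT (horizontal axis) for each of the 9 genes (rows) at each stage (panels), with bars of 1 SE from edgeR on 4 WT and 4 KO libraries. Values are negative for all 9 genes at E12.5, near 0 for 8 of 9 at E14.5, and positive for the 6 genes tested at PND0, and none passed an adjusted p of 0.05.

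An unadjusted p under 0.05 between genotypes was found for 2 of 9 genes at E12.5 (796 of 16948 over all genes), 1 of 9 at E14.5 (1557 of 17837), 4 of 7 at E16.5 (2001 of 17328) and 5 of 6 at PND0 (3130 of 17420). The 4 adult globins and Alas2 moved together from brain to brain, with r of 0.852 to 0.970 over deviations from the group means. These counts are therefore not of independent genes. By DESeq2, 0 of the 9 were called at each stage before birth and 2 at PND0. Over all genes it called 30 (E12.5), 122 (E14.5), 150 (E16.5) and 921 (PND0). In the fit of all 32 libraries, the KO effect averaged over the stages was called for 0 of the 9 genes by edgeR and by DESeq2, with 0 at an unadjusted p under 0.05, where 0.558% of 19541 genes were called. For Hbb-bh1, with no counts at PND0, edgeR could not estimate this average (SE of 1751), so it could not have been called. Hbb-y and Hba-x, with almost no counts at PND0, had SEs of 1.26 and 0.69. Whether the KO effect differed between stages was called for 0 of the 9 genes by edgeR, where 0.0256% of all genes were called. The 4 adult globins, Alas2 and Slc4a1 had unadjusted p of 0.0018 to 0.0054 and adjusted p of 0.17 to 0.22 in that test. DESeq2 called 5 of them, Hba-a1 (adjusted p = 0.025), Hba-a2 (0.026), Hbb-bt (0.021), Alas2 (0.026) and Slc4a1 (0.0034). Over all genes DESeq2 called 346 in this test, against 5 by edgeR. Without E12.5 KO replicate 1, edgeR called Hba-a1 (0.026) and Slc4a1 (0.030).

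Other red cell genes fell at the first step as well. Of the 14 erythroid markers, 13 fell at the first step in WT, where 30.5% of all genes tested fell, with a median log2 fold change of -2.23 against -0.03 over all genes. In KO, 9 of the 11 tested fell, against 25.0% of all genes. Within E14.5, 11 of the 14 markers could be tested. Markers that passed the filter on low counts through E12.5, where they were high, could only be called lower, which limits the comparison with all genes. The blood group gene Kel fell by 3.89 ± 0.43 in WT and 3.61 ± 0.43 in KO (edgeR adjusted p of 0.00019 or less). Gata1, the master regulator of red cell genes, fell by 3.12 ± 0.47 in WT (adjusted p = 0.00030), and was not among the 9 markers called in KO. Later, at the second step, 2 of 5 tested markers fell in WT (Ermap and Trim10) and 1 of 4 in KO, where 28.2% and 30.5% of all genes tested fell.

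Genes of heme synthesis besides Alas2 moved in both directions. Of 8, at the first step in WT, 5 fell (among them Urod, Ppox and Fech) and 2 rose (Alas1, the housekeeping form of the first enzyme, and Uros), where 57.8% of all genes were called in either direction. Urod fell by 0.36 ± 0.06 and Ppox by 0.35 ± 0.06 in WT (edgeR adjusted p = 0.00046 and 0.00055), and Ppox fell by 0.27 ± 0.07 in KO (adjusted p = 0.013). The red cell membrane and skeleton list split: Ank1 and Sptb, which neurons also make, rose by 0.96 ± 0.11 and 0.81 ± 0.12 in WT, while Gypc (glycophorin C) fell by 0.92 ± 0.14 (adjusted p of 0.00034 or less).

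Of 10 regulators known from globin switching, 1 rose and 3 fell at the first step in each genotype, where 30.5% of all genes tested fell in WT and 25.0% in KO. Bcl11a, a repressor of embryonic globin genes in red cells, rose by 0.70 ± 0.08 in WT (adjusted p = 6.9e-05) and 0.69 ± 0.14 in KO (adjusted p = 0.0028). Brain neurons also make Bcl11a, which was at 170 ± 22.1 CPM in E12.5 WT (SD, n = 4), and the cells it came from were not separated. Nr2c2 (TR4), which binds embryonic globin promoters, fell by 1.34 ± 0.08 and then rose by 1.36 ± 0.10 in WT, and fell by 1.54 ± 0.28 and rose by 1.74 ± 0.07 in KO. From E16.5 to PND0 Nr2c2 fell again, by 1.69 ± 0.32 in WT and 2.74 ± 0.11 in KO (edgeR adjusted p = 0.0029 and 1.4e-08). At the second step 6 of the 10 fell in WT, among them Myb (by 0.80 ± 0.12) and Chd4 (by 1.02 ± 0.06), and 7 fell in KO, against 28.2% and 30.5% of all genes tested. The 10 regulators summed to 1562 ± 110 CPM in E12.5 WT (SD, n = 4), against 67.7 ± 19.8 CPM for the 14 erythroid markers. For none of the 10 were the cells it came from separated.

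Further genes of the globin clusters were scarce. Hbb-bh0 had 107 counts over the 4 libraries of E12.5 WT, 38 in E12.5 KO, 43 and 47 (E14.5), and 0 in all 16 libraries of E16.5 and PND0. Hbb-bh2 had at most 9 counts in a group and likewise 0 at the 2 later stages. The theta-like gene Hbq1b was at 1.29 ± 0.735 CPM in WT and 0.558 ± 0.363 CPM in KO at E12.5, and still at 1.03 ± 0.738 and 1.43 ± 0.804 CPM on the day of birth (SD, n = 4).

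Across all 32 libraries, the genes whose log2 level was most like that of Hbb-y were Rrm1 (Pearson r = 0.989), Ccna2 (0.985), Wdhd1 (0.983), Peg12 (0.983) and Smarca5 (0.983), of 16057 ranked. For Slc4a1 they were Qars (0.978), Tent5c (0.959), Cdk2 (0.957), Tmem123 (0.957) and Lig1 (0.957). For Hbb-bs no gene outside the 9 exceeded 0.729 (4930404I05Rik). The libraries fall into 4 stages, which these values share, so they describe courses over the stages. Taken instead as deviations from the 8 group means, the 5 genes most like Slc4a1 included Atp6v0e (0.712), Crocc2 (0.702) and Alox12 (0.700).

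Deviations from the group means also ordered the 9 genes among themselves. The 4 adult globins and Alas2 moved closely together from brain to brain, with r between 0.852 and 0.970 over 32 libraries. Slc4a1 followed them less closely (0.506 to 0.637), as did Hbb-y (0.287 to 0.552). Hbb-bh1 had r between -0.123 and 0.0949 with the adult globins and Alas2. The libraries share depth and scaling, and the embryonic genes have few counts at the 2 later stages.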

How the data were processed

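RNA from whole brains was sequenced as polyadenylated transcripts with 150 bp paired reads, per the labels' protocols. The authors deposited 1 table per stage of raw counts per gene symbol, not normalized. The submitters' processing notes name HISAT2, SAMtools, featureCounts and DESeq2 without versions, and the build mm10. The annotation, the strand setting and the treatment of reads that fit several genes are not given in the sources used here. The 9 genes and all gene lists were chosen with earlier results of these data known.

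Stages and genotypes came from the sample titles. Tests used edgeR 4.0.16 (R 4.3.3). Genes passed filterByExpr with its minimum count of 10 and minimum total of 15, libraries were scaled by TMM, quasi-likelihood dispersions were fitted with the robust option, and p-values were adjusted by Benjamini-Hochberg over all genes tested, with calls under 0.05. Each comparison was fitted on its own 8 libraries, and the averaged and stage-dependent KO effects on all 32. CPM values used TMM over the 32 libraries, and log2 CPM for correlations a prior count of 2. A floor of 3 counts and 95% Wilson intervals cover counting error only. The labels do not say which brains share a litter, so p-values measure the spread between these samples, which may be partly technical. Over the 48 pairs of libraries within groups, chi-square per degree of freedom was 2.90 or more, so no pair was a copy. Positions used GRCm38 with GENCODE M21, and promoter windows RefSeq (GRCm38.p6).

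Named genes are the 9, Dhcr7, in each other list those past the threshold plus the 2 smallest p-values of a comparison, and the 5 genes most alike. In the text Hbb-bh0, Hbb-bh2, Hbq1b, Klf1, Ttr, Alb and Afp were also named after their values were seen. The alternatives tried were DESeq2 1.42.0, scaling by RLE, leaving out the filter, library sizes without the globins, a covariate of the mean log2 CPM of the erythroid markers, all 32 libraries in 1 fit, a replicate block, and each library left out. Ahsp, an erythroid marker, was not found among the symbols. Results on some single genes of the lists are not reported here.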

Additional observations from a re-analysis of the deposited data

Results flagged for a closer look

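Of 108 sets of 4 libraries tested for a single value far from the other 3, 10 were picked out, and chance picks about 1 in 20. At E12.5, KO replicate 1 was high for Hbb-y (3094 CPM, against 936 to 1099 in the other KO libraries) and for the globin share of the library (0.461%, against 0.157% to 0.189%). WT replicate 3 was high for Hbb-bs (797 CPM, against 46.3 to 119) and Hbb-bt (503 CPM, against 65.6 to 113), and it also had the lowest embryonic share of its group, at 59.8%. WT replicate 1 was high for Hbb-bh1 (111 CPM, against 73.2 to 74.5).

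At E14.5, KO replicate 4 was low for the share of Hba-a2 in adult alpha counts (8.48%, against 9.69% to 9.90%). At E16.5, KO replicate 4 was high for Hbb-y (2.94 CPM, against 0.998 to 1.11) and Alas2 (14.1 CPM, against 9.23 to 10.1), and KO replicate 3 was low for Hba-a2 (57.3 CPM, against 81.9 to 82.4). At PND0, KO replicate 3 was high for Hba-a2 (95.1 CPM, against 8.36 to 21.8). Its adult globins summed to 2223 CPM, against 222 to 615 CPM in the other KO libraries.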

How the results depend on the processing

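The embryonic share of globin counts kept its order over the stages under every setting tried. Without Hba-a1 and Hba-a2 it was 90.0% (WT) and 90.1% (KO) at E12.5, 49.2% and 49.5% (E14.5), and 0.599% and 0.519% (E16.5), because adult counts were removed. The share per transcript length, from summed counts, or with the scarce globin genes stayed within 1 SD of the printed means. Leaving out 1 library, the means were 69.6% to 75.7% (WT) and 70.8% to 74.7% (KO) at E12.5.

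Counts of the 9 genes called moved in these settings, and for those not shown by the construction the cause was not tested. For KO against WT at E14.5, 1 was called without the low-count filter, and 0 to 1 leaving out single libraries. At PND0, 2 were called by DESeq2 and 2 in a single fit of all 32 libraries. In KO from E14.5 to E16.5, 4 were called in the single fit. In KO from E16.5 to PND0, 2 were called without the filter, 2 by DESeq2, and 1 to 3 leaving out libraries. In WT from E12.5 to E14.5, 5 to 8 were called leaving out libraries, the 8 without E12.5 WT replicate 4. For the KO effect differing between stages, 5 were called by DESeq2 and 0 to 2 leaving out libraries.

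Signs changed only for fold changes that were not called by edgeR as printed. At E14.5 the erythroid covariate turned the KO fold change to 0.33 (Hbb-y), 0.12 (Hbb-bh1), 0.24 (Hba-x), 0.11 (Hba-a1), 0.070 (Hbb-bt) and 0.18 (Alas2), and no filter gave -0.00054 for Hbb-bs. Leaving out single libraries at that stage, values ran from -0.089 to 0.13 (Hbb-y), -0.30 to 0.034 (Hbb-bh1), -0.22 to 0.047 (Hba-x), -0.081 to 0.16 (Hba-a2), -0.12 to 0.068 (Hbb-bs) and -0.17 to 0.026 (Alas2). For Hbb-bs they ran from -1.86 to 0.056 in KO against WT at E12.5, from -0.070 to 1.87 in WT from E12.5 to E14.5, from -0.18 to 0.030 in KO from E14.5 to E16.5, and from -0.46 to 0.87 in KO from E16.5 to PND0. For KO, Hba-a1 ran from -0.18 to 0.48 (E12.5 to E14.5) and from -0.14 to 1.12 (E16.5 to PND0), Alas2 from -0.11 to 0.91 and Slc4a1 from -0.17 to 0.35 (both E16.5 to PND0).

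Same-numbered libraries did not deviate together: in no comparison were all 4 correlations above 0.1 (range -0.27 to 0.38), so the numbers were not taken as pairs. With the replicate block, 7 of the 9 genes were called in WT from E12.5 to E14.5 and 4 in WT from E14.5 to E16.5, where Hba-a2 (1.40, adjusted p = 0.11) and Hbb-bt (1.06, adjusted p = 0.060) missed the threshold, and 0 in each KO against WT comparison. Over all genes, KO against WT called 3 at E12.5 as printed, against 6 with the block, 30 by DESeq2 and 52 in the single fit. At E14.5 it called 94, against 146 without the filter, 29 with the covariate and 4 in the single fit. At E16.5 it called 8, against 233 without the filter, 150 by DESeq2, 5 with the block, 3 with the covariate and 3 in the single fit. At PND0 it called 250, against 1091 without the filter, 921 by DESeq2 and 1205 in the single fit. The averaged effect called 109, against 72 without the filter and 355 by DESeq2. The effect differing between stages called 5, against 11 without the filter, 346 by DESeq2, 1 with the block and 0 with the covariate.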
